A study of Mus musculus with 4 samples.

Results

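Mitochondrial respiration passes electrons through a chain of membrane complexes and uses the resulting proton gradient to make ATP. This account covers the nuclear genes for complexes II to V of that chain in HL-1 cells, a mouse atrial muscle cell line that beats in culture, after 24 h of rapid electrical pacing. The members were all probe sets annotated to exactly 1 gene symbol that is Sdha, Sdhb, Sdhc, Sdhd, Cyc1, Cycs or Cyct, or that begins with Uqcr, Atp5, Cox4, Cox5, Cox6, Cox7 or Cox8. These were 97 of 45101 probe sets on the array and 49 of 18193 genes with such a probe set. They comprised 4 genes of complex II, 9 of complex III, 2 for cytochrome c, 17 of complex IV and 17 of complex V. All 49 symbols are current names in the RefSeq annotation of GRCm38.p6.

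The stimulated group was 2 samples of HL-1 cells paced at 300 bpm for 24 h, which the labels give as 1.5 to 2 times the control rate. The control group was 2 samples of HL-1 cells that contracted spontaneously, without stimulation. Both groups were grown to confluence in supplemented Claycomb medium on gelatin and fibronectin, and each sample was read on 1 Affymetrix array. All 4 samples are of 1 cell line. No sample was paced at the control rate, so the faster rate and the electric field cannot be told apart. The titles of the stimulated samples read exp 1 and exp 2, and those of the control samples carry no number. Whether the 2 samples of each group came from separate cultures is not stated in the labels, so p-values reflect a spread between samples that may be technical.

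Complex II oxidises succinate and also belongs to the citric acid cycle. Complex III takes electrons from ubiquinol and gives them to cytochrome c, a small soluble carrier. Complex IV, cytochrome c oxidase, passes them to oxygen, and complex V is the ATP synthase. Heart muscle is densely packed with these complexes. Some complex IV subunits exist as a heart and skeletal muscle isoform beside a ubiquitous one. The subunits that the mitochondrial genome encodes are not analysed here.

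With pacing, Sdhd and Cox8b fell and no other gene of complexes II to V passed the test. Neither call held when any 1 array was left out. Of all genes tested, 1.62% were called lower. Sdhd encodes a membrane anchor of complex II, and Cox8b the heart isoform of subunit 8 of complex IV. Of the 47 genes tested, 45 had a mean below that of the controls, by a median of -0.26 on the log2 scale, which is 83.4% of the control value. Among all 13058 genes tested, 50.9% lay below the controls and the median was -0.01. The heart isoform Cox6a2 was the largest exception, at 0.62 above controls, without passing the test. In bulk RNA, fewer cells of a kind and less RNA per cell cannot be told apart.

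Upstream sequences are shown for 4 genes on which the results turn. Sdhd and Cox8b are the 2 genes called lower with all 4 arrays. Cox7a1 is a heart isoform whose groups did not overlap, and Cox6a1 is a ubiquitous isoform with a change near 0. The 250 bases before the annotated start were taken from RefSeq, build GRCm38.p6, and are written 5′ to 3′ in the direction of the gene. They lie at chr9:50603850-50604099 (Sdhd, minus strand), chr7:140900447-140900696 (Cox8b, minus strand), chr7:30183921-30184170 (Cox7a1, plus strand) and chr5:115348959-115349208 (Cox6a1, minus strand). Capitals mark exact matches on either strand to the NRF1 motif (GCGCA, any base, GCGC) or the GABP motif CCGGAAG. NRF1 and GABP are transcription factors known for binding respiratory gene promoters.
Sdhd: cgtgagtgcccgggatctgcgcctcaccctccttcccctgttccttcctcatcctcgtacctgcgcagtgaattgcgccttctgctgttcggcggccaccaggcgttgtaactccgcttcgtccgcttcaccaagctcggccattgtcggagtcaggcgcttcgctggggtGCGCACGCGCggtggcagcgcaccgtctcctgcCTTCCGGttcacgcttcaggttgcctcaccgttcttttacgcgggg
Cox8b: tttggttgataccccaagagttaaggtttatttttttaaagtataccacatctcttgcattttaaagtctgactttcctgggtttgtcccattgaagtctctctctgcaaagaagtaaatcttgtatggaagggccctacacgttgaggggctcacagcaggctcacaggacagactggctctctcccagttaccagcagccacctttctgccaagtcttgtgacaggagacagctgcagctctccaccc
Cox7a1: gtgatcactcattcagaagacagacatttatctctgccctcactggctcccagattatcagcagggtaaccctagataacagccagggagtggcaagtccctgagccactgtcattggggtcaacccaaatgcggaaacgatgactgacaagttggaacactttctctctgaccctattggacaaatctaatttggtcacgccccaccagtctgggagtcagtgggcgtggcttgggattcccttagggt
Cox6a1: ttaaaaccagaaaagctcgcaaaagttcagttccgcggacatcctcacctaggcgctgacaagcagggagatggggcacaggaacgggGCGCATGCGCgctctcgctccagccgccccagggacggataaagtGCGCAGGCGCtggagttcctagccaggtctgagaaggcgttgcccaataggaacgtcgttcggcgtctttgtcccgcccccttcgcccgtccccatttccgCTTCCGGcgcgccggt
Counted back from the start, Sdhd held an NRF1 match at -79 to -70 and a GABP match at -46 to -40. Cox6a1 held NRF1 matches at -162 to -153 and -117 to -108 and a GABP match at -16 to -10. The Cox8b and Cox7a1 windows held no match to either motif, nor to the MEF2 motif (CTA, any 4 bases, TAG) or the ERR motif TCAAGGTCA. Of the 49 genes, 37 had an upstream window in the table. An NRF1 match was present in 7 of these 37 genes (18.9%) and in 4.23% of the 27018 genes of the table. A GABP match was present in 9 of the 37 (24.3%) and in 7.83% of all. The ERR motif was found in 1 of the 37, against 0.422% of all, and the MEF2 motif in 1 of the 37, against 3.7% of all. The marked matches did not overlap each other in the printed windows. Among the tested genes with a window, the 13 with an NRF1 or GABP match had a median change of -0.34 (range -1.18 to -0.02) and the 22 with neither had a median of -0.25 (range -0.78 to 0.34). These ranges overlap, and a match of letters is a description only.

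The values were log2 RMA values, which give each probe set a summary value on each array after background correction and quantile normalisation. Array medians lay between 4.96 and 5.01 and the number of arrays limits the precision. Each gene was represented by its probe set of highest mean, and a gene was tested where that mean was at least 4.39, the 40th percentile over the table. Changes are stimulated minus control with the standard error of a limma fit across all genes tested. A gene passed at a Benjamini-Hochberg adjusted p under 0.05. Of the 49 genes, 47 reached the filter, while the testis isoform genes Cyct and Cox7b2 lay below it, at 3.24 to 3.65 and 3.14 to 3.49 on the 4 arrays.

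The 2 falls and 0 rises among 47 genes compare with 1.62% of all genes tested called lower and 3.91% called higher. Of genes at level 11 or more, 2.49% were called lower. At an unadjusted p under 0.05 there were 16 of the 47, beside 25.6% of all genes tested and 28.9% of genes at level 11 or more. The stimulated arrays both lay below both control arrays in 33 of the 47 genes, and for none did they both lie above. Among all genes tested 27.7% were lower without overlap, and among the 684 genes of level 11 or more 41.2% were. Respiratory genes are bright on the array, with 40 of the 47 at level 11 or more, so the bright genes are a second yardstick. Bright genes as a whole had a median change of -0.08 and 59.4% lay below the controls. The 40 bright respiratory genes had a median of -0.25 and 39 of them lay below. Whether the array understates the changes of its brightest genes was not tested.

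**Figure D1:**
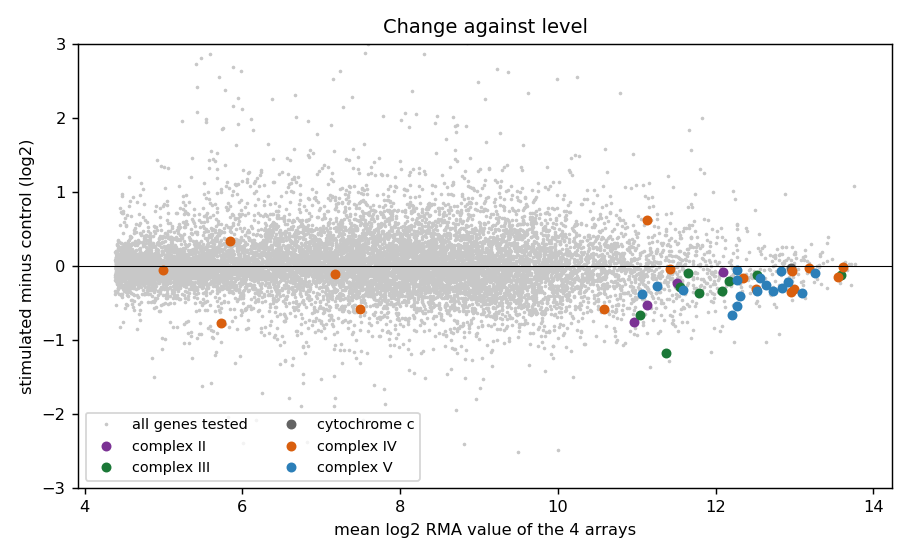
Change (stimulated minus control, log2) against the mean log2 RMA value of the 4 arrays for all 13058 genes tested (grey) and the 47 tested genes of complexes II to V (coloured by complex). The vertical axis stops at 3 in both directions, which leaves out 16 genes, and most coloured points lie to the right of level 11 and below 0.

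The 2 stimulated arrays differed in how far they lay from the controls. Stimulated 1 had a median of -0.36 against the control mean over the 47 genes and stimulated 2 a median of -0.16. Stimulated 1 was the lower of the pair in 41 of 47 genes (87.2%), against 46.0% of all genes tested and 60.7% of genes of level 11 or more. Control 1 was the lower control in 15 of the 47, and the median difference of control 1 minus control 2 was 0.05. Stimulated 1 lay below both controls in 40 genes and stimulated 2 in 35. Over all 13058 genes tested these counts were 4855 and 5472, and over the 684 of level 11 or more 353 and 330. Among the 40 bright respiratory genes they were 36 and 29. Without stimulated 1 the median of the 47 was -0.16, and without stimulated 2 it was -0.36.

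The summed level of atrial muscle markers was also lower on stimulated 1. All 10 atrial muscle markers fixed for this check (Myh6, Nppa, Actc1, Tnnt2, Tnni3, Myl4, Myl7, Sln, Ryr2 and Des) lay past the filter. Their linear values summed to 15.7 and 15.9 (log2) on stimulated 1 and 2, against 15.9 on both control arrays. Taken singly, 8 of the 10 lay below the controls, 7 of them without overlap, beside 27.7% of all genes tested and 41.2% of those of level 11 or more. Nppa and Des lay above, Des by 0.75 ± 0.16 (adjusted p = 0.0555, limma) with its other probe set at -0.1. The median change of the 10 was -0.24. The ryanodine receptor gene Ryr2 fell by 0.85 ± 0.16 (adjusted p = 0.0419, limma), and did not pass with any 1 array left out (0.0913 to 0.203) or with the mean of probe sets (0.0896). Nppa, for atrial natriuretic peptide, rose by 2.00 ± 0.14 (adjusted p = 0.00561, limma). It read 12.84 and 12.81 in stimulated cells, against 10.69 and 10.96 in control cells. Nppa is part of the atrial sum, so its rise lifts the sums of both stimulated arrays and offsets falls of other markers there. Of fibroblast markers 3 of 6 were past the filter (sums 7.06 and 7.83 in stimulated, 7.12 and 8.14 in control cells), of endothelial markers 1 of 4 (6.57 and 6.45 against 6.79 and 6.60), of smooth muscle markers 2 of 3 (13.75 and 13.93 against 13.78 and 13.94), of ventricular markers 1 of 2 (8.87 and 9.48 against 9.75 and 9.88) and of leukocyte markers 2 of 3 (6.97 and 7.13 against 5.96 and 6.20). The leukocyte gene Ptprc stayed between 3.04 and 3.51 on all arrays, below the filter, while Cd68, a lysosomal protein also used as a macrophage marker, rose by 2.08 ± 0.23 (adjusted p = 0.0187, limma, or 0.0361 to 0.0808 with 1 array left out). The manufacturer's 3′ minus 5′ control for Gapdh read -0.05 and -0.03 in stimulated and -0.10 and -0.07 in control samples, and that for beta actin 0.25 and 0.30 against 0.28 and 0.22. The part of these values in the respiratory results was not tested.

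**Figure D2:**
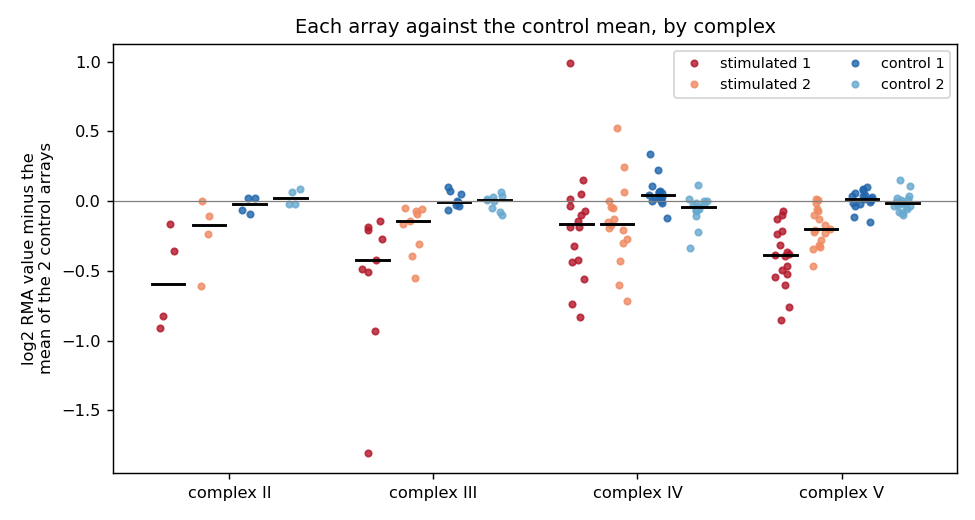
Log2 RMA value of each tested gene minus the mean of the 2 control arrays, on each array (stimulated 1, stimulated 2, control 1, control 2) and by complex, with black bars at the medians. Stimulated 1 sits lowest in complexes II, III and V, with medians of -0.59, -0.42 and -0.38, and both stimulated arrays have a median of -0.16 in complex IV.

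In complex II all 4 genes lay below the controls, by a median of -0.38. Sdhd read 10.44 and 10.74 in stimulated cells, against 11.37 and 11.32 in control cells. The groups did not overlap, and Sdhd fell by 0.76 ± 0.15 (adjusted p = 0.0444, limma). Its second probe set gave -0.45. The other membrane anchor gene, Sdhc, read 10.57 and 11.16 in stimulated and 11.33 and 11.46 in control cells, a difference of -0.53 ± 0.21 (adjusted p = 0.184, limma). Here the difference came mostly from stimulated 1. Neither catalytic subunit gene passed. Sdha, the flavoprotein that oxidises succinate, differed by -0.23, and Sdhb, the iron-sulphur subunit, by -0.08 with overlapping groups. The Sdhd call did not hold when arrays were centred on their medians (adjusted p = 0.0506), with the mean of its probe sets (adjusted p = 0.0578), or when any 1 array was left out (adjusted p from 0.0633 to 0.20).

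In complex III all 9 genes lay below the controls and the groups overlapped in none of them, with a median of -0.29. None passed the test. Lower without overlap were 41.2% of all tested genes of level 11 or more, a level that all 9 reach. The hinge protein gene Uqcrh, whose product helps cytochrome c dock on complex III, had the largest difference of all members over the 4 arrays, at -1.18 ± 0.38 (adjusted p = 0.126, limma). It read 10.15 and 11.41 in stimulated cells and 11.90 and 12.02 in control cells, so stimulated 1 was more than 1 log2 unit below stimulated 2. A second Uqcrh probe set read 9.87 and 10.96 against 11.47 and 11.65, in the same order. The Uqcrh difference was -0.55 without stimulated 1 (adjusted p = 0.18) and -1.81 without stimulated 2 (adjusted p = 0.0439). Uqcr11, a small membrane subunit, read 10.44 and 10.98 in stimulated cells, against 11.34 and 11.41 in control cells. That is a difference of -0.66 ± 0.20 (adjusted p = 0.103, limma). The 4 genes for core and redox subunits ranged from -0.36 for Uqcrc2 to -0.13 for cytochrome c1 (Cyc1), with the Rieske iron-sulphur gene Uqcrfs1 at -0.29 and Uqcrc1 at -0.21. The small subunit genes Uqcrb and Uqcrq differed by -0.13 and -0.10. Uqcr10, at -0.34, had 2 other probe sets at 0.08 and 0.16, so its probe sets gave different directions.

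The carrier gene Cycs, somatic cytochrome c, read 12.96 and 12.92 in stimulated and 13.04 and 12.91 in control cells. The groups overlapped and the difference was -0.03 ± 0.12 (adjusted p = 0.906, limma). Its other probe sets ranged from -0.24 to 0.02.

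Changes in complex IV ranged from -0.78 to 0.62, with a median of -0.13 over 16 genes. Of these 14 lay below the controls, 9 of them without overlap, beside 27.7% of all genes tested and 41.2% of those of level 11 or more. Among its bright ubiquitous subunits, Cox4i1, the main isoform of subunit 4, differed by -0.07, Cox5a by -0.03, Cox5b by -0.16 and Cox6c by -0.17. Cox6b1, a subunit on the outer face of the enzyme, differed by -0.35 with groups that did not overlap (adjusted p = 0.165, limma). Cox7a2l, which is known for joining complexes III and IV in supercomplexes, differed by -0.04. The oxygen-dependent isoform gene Cox4i2 lay near the filter, between 4.86 and 5.08 on all 4 arrays. Both Cox7c probe sets read low. The brighter one, at 5.82 and 6.19 in stimulated and 5.90 and 5.45 in control cells, gave 0.34 with overlapping groups, and the other lay below the filter.

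The 3 heart isoforms did not move alike. Cox8b read 5.28 and 5.40 in stimulated cells, against 6.0 and 6.23 in control cells, and fell by 0.78 ± 0.14 (adjusted p = 0.0405, limma). This probe set lay within 2 log2 units of the filter level, and the call was lost when any 1 array was left out (adjusted p from 0.0857 to 0.211). Cox7a1 read 10.13 and 10.44 in stimulated cells and 10.93 and 10.82 in control cells, without overlap, a difference of -0.59 ± 0.15 (adjusted p = 0.080, limma). Cox6a2 went the other way in its means. It read 11.80 and 11.06 in stimulated cells, against 11.16 and 10.48 in control cells, so that stimulated 1 was highest, control 2 lowest, and the groups overlapped between stimulated 2 and control 1. The difference was 0.62 ± 0.31 (adjusted p = 0.284, limma). A second Cox6a2 probe set read 9.94 and 9.19 in stimulated and 9.33 and 8.47 in control cells, in the same order, a difference of 0.66.

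None of the ubiquitous partners of these isoforms passed the test. Cox6a1 read 13.63 and 13.58 in stimulated and 13.73 and 13.51 in control cells, with overlap, a difference of -0.02 ± 0.14 (adjusted p = 0.959, limma). Cox7a2 read 12.73 and 12.94 in stimulated cells, against 13.14 and 13.17 in control cells, without overlap. The difference was -0.31 ± 0.13 (adjusted p = 0.21, limma), and a second Cox7a2 probe set gave -0.53. Cox8a read 12.34 and 12.36 in stimulated cells, against 12.71 and 12.62 in control cells, also without overlap, a difference of -0.31 ± 0.12 (adjusted p = 0.18, limma).

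Heart and ubiquitous isoforms were then set against each other within each array, as the heart minus the ubiquitous probe set, and that difference was compared between groups. For subunit 6a the change was 0.63 higher for the heart isoform, with within-array differences of -1.83 and -2.51 in stimulated and -2.58 and -3.04 in control samples. For subunit 8 it was -0.46, with -7.06 and -6.97 in stimulated and -6.71 and -6.38 in control samples. For subunit 7a it was -0.27, with -2.60 and -2.50 in stimulated and -2.21 and -2.35 in control samples. Only changes of these differences are read, since levels of different probe sets cannot be compared. In all 3 pairs the groups did not overlap and the two-sided exact permutation p was 0.33, the smallest that 2 against 2 arrays can give. The subunit 7a difference was -0.06 with overlapping groups (exact p = 0.667) when the second Cox7a2 probe set was used. The pair with Cox6a2 and those with Cox7a1 and Cox8b had opposite signs, which was not tested further.

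**Figure D3:**
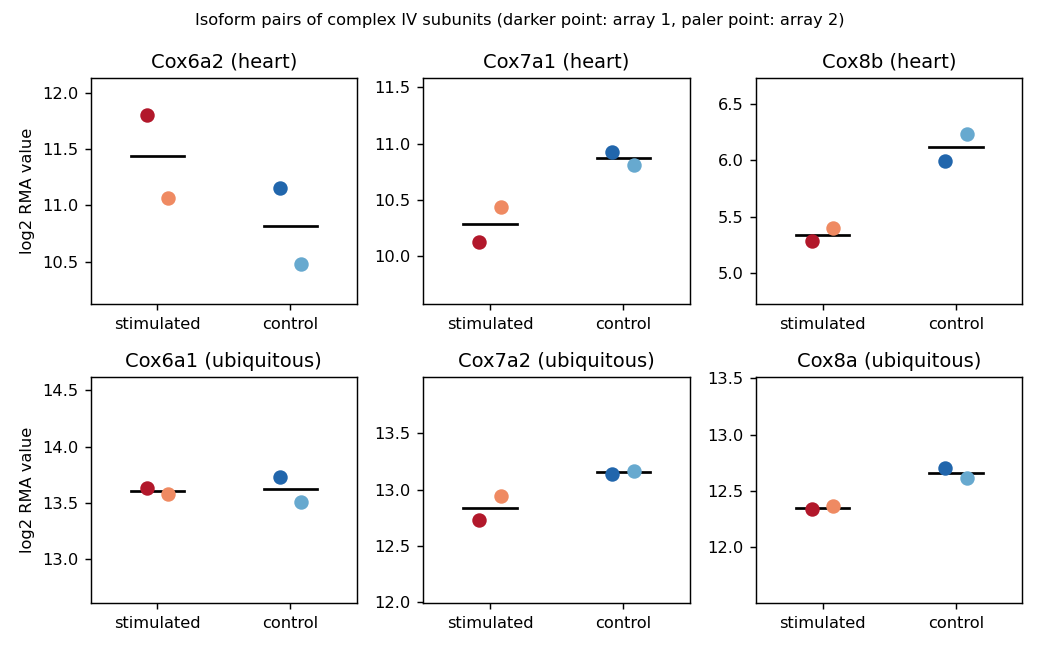
Log2 RMA values of the heart isoforms (upper row) and ubiquitous isoforms (lower row) of complex IV subunits 6a, 7a and 8 in stimulated and control samples, with points for arrays and bars for means of 2. Every panel spans 2 log2 units. Cox7a1 and Cox8b, and their ubiquitous partners Cox7a2 and Cox8a, are lower in both stimulated samples. Cox6a2 is highest in stimulated 1 with overlapping groups, and the Cox6a1 groups overlap.

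The testis isoform genes gave 1 further difference. Cox6b2, the testis form of subunit 6b, read 7.22 and 7.17 in stimulated cells, against 7.78 and 7.77 in control cells, with very close replicates. The difference was -0.58 ± 0.12 and just missed the threshold (adjusted p = 0.0502, limma). Adjusted p was 0.0399 with a 60th percentile filter, 0.0367 with the mean of probe sets and 0.0392 with arrays centred on the median of the genes tested, a setting chosen after seeing the data. It was 0.0514 to 0.0582 with no filter, arrays centred on their medians, every probe set on its own or an intensity trend, and 0.113 to 0.236 with any 1 array left out. Cox8c, another testis form, differed by -0.11 with overlapping groups.

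In complex V all 17 genes lay below the controls, with a median of -0.30 and a range of -0.66 to -0.06. Of the 17, all of level 11 or more, 12 did not overlap, beside 41.2% of all genes of that level lower without overlap. None of the 17 passed the test. Stimulated 1 was the lower stimulated array in all 17 genes. Atp5k, subunit e of the membrane part, read 11.68 and 12.07 in stimulated cells, against 12.57 and 12.50 in control cells. Its difference was -0.66 ± 0.16 (adjusted p = 0.0744, limma), and its other probe sets gave -0.93 and -0.60. Atp5g1, which with Atp5g2 and Atp5g3 encodes the rotating c ring, read 11.78 and 12.21 in stimulated and 12.55 and 12.53 in control cells. Its difference was -0.54 ± 0.17 (adjusted p = 0.118, limma).

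The c ring genes Atp5g2 and Atp5g3 differed by -0.41 and -0.30. Of the F1 head, which makes ATP, the alpha subunit gene Atp5a1 differed by -0.36 with non-overlapping groups and by -0.34 and -0.24 on its other probe sets. The beta subunit gene Atp5b, its catalytic partner, differed by -0.09. The gamma, delta and epsilon subunit genes Atp5c1, Atp5d and Atp5e differed by -0.26, -0.16 and -0.27. Among the peripheral stalk genes, which hold the head in place, Atp5j and Atp5o differed by -0.34 and -0.22, and Atp5h and Atp5pb by -0.07 and -0.06. Other probe sets gave -0.11 for Atp5o, -0.03 for Atp5h and -0.19 for Atp5pb, so the order of these genes depends on the probe set. The small membrane subunit genes Atp5md, Atp5j2, Atp5mpl and Atp5l ranged from -0.39 to -0.19.

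**Figure D4:**
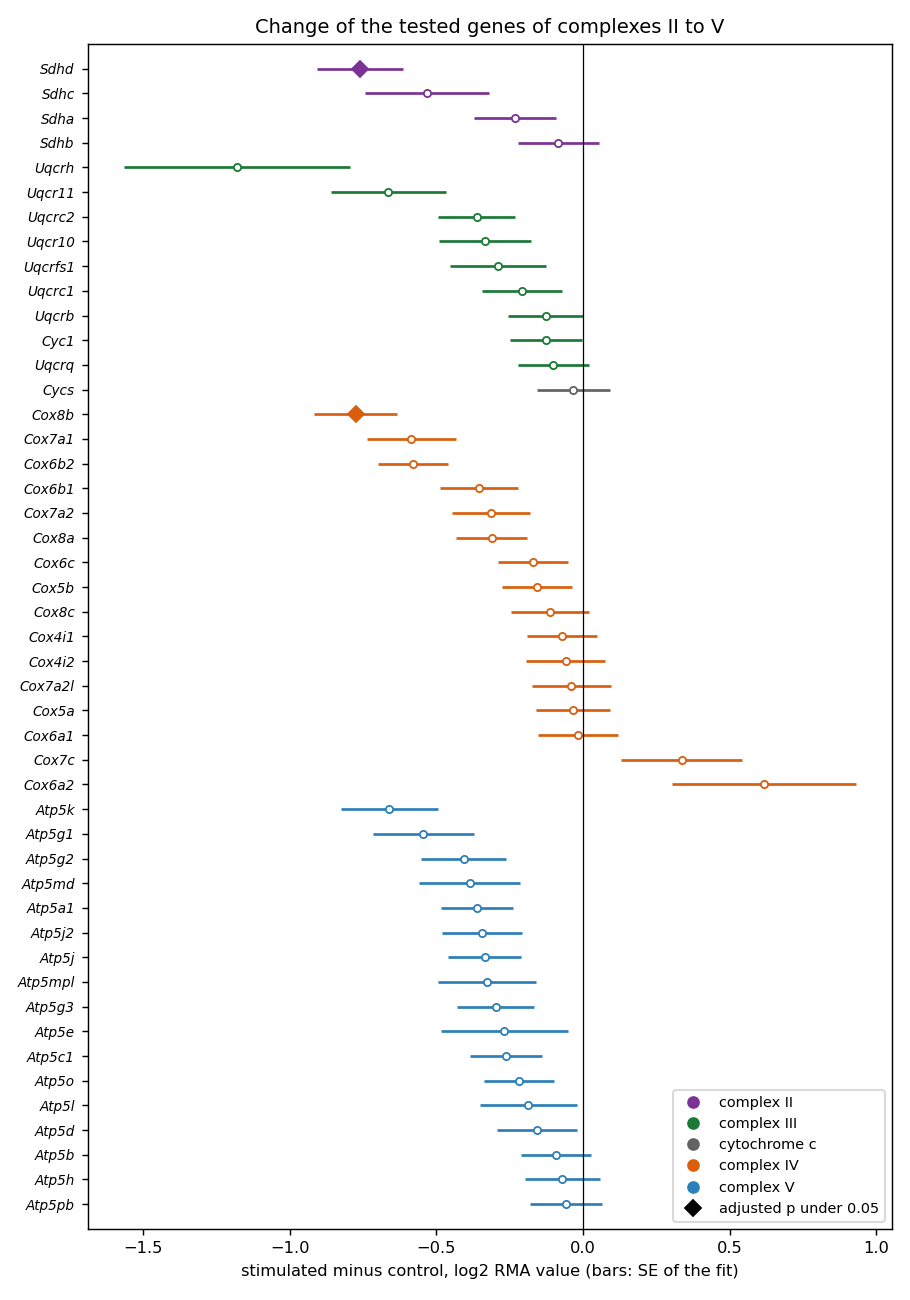
Change of each of the 47 tested genes (stimulated minus control, log2 RMA value) with the standard error of the fit, coloured by complex, with filled diamonds for adjusted p under 0.05. Points lie left of 0 for all genes but Cox7c and Cox6a2, and the diamonds are Sdhd at -0.76 and Cox8b at -0.78.

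Set side by side, the medians were -0.38 for complex II (4 genes) and -0.29 for complex III (9). They were -0.13 for complex IV (16) and -0.30 for complex V (17), and the ranges of the 4 complexes overlapped. The sets differ in level, since the dimmest tested gene had a mean of 10.97, 11.04 and 11.06 in complexes II, III and V but 5.00 in complex IV. Without stimulated 1 the medians were -0.17 for complex II, -0.14 for complex III and -0.20 for complex V, against -0.16 for complex IV. The 44 Nduf genes, which mostly encode complex I, had a median of -0.28. Of these, 40 lay below the controls and 1 was called lower, beside 50.9% and 1.62% of all genes tested.

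Where a gene had several probe sets past the filter, which was so for 28 genes, they differed in change by over 0.5 in 1 gene, Atp5g2. There the second probe set read only 4.49 to 4.92 and gave 0.16. Of the 42 other probe sets past the filter, 31 lay below the controls, as did 25 of the 29 at level 9 or more. The 97 probe sets include 15 of a type marked by the manufacturer as able to bind other transcripts (x_at).

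Genes that build, supply or regulate the complexes were read from lists. Among all genes tested 1.62% were called lower, 3.91% were called higher and 50.9% lay below the controls, which is the background for every list. Of 21 assembly factors of complex IV tested, Cmc2 fell and none rose, with a median of -0.21 and 13 below the controls. Cmc2 read 9.21 and 9.51 in stimulated cells, against 10.33 and 10.28 in control cells. It fell by 0.94 ± 0.15 (adjusted p = 0.0317, limma), and its other probe sets gave -0.81 and -0.67. Cox20, which helps mature a core subunit, read 9.67 and 10.35 in stimulated and 10.94 and 10.99 in control cells (-0.95 ± 0.23, adjusted p = 0.0697, limma). Of 6 assembly factors of complex III, Uqcc3 fell by 0.71 ± 0.13 (adjusted p = 0.0386, limma), with 7.96 and 8.02 in stimulated and 8.76 and 8.63 in control cells, and none rose. Neither call held when any 1 array was left out (adjusted p from 0.0545 to 0.166 for Cmc2 and from 0.0854 to 0.192 for Uqcc3). Ttc19 differed by 0.30 (adjusted p = 0.209, limma).

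None of the 4 assembly factors of complex II passed, with Sdhaf4 at -0.48 (adjusted p = 0.0964, limma) and Sdhaf1 at -0.16. None of the 3 of complex V passed either, with Atpaf2 at -0.25 and Tmem70 at 0.23. The ADP/ATP carrier genes Slc25a5 and Slc25a4, which exchange the product of complex V across the inner membrane, differed by -0.35 and -0.28, and 0 of 3 carriers passed. Of 4 haem genes 0 passed. Fech, the last enzyme of haem synthesis, differed by -0.39 and Alas1, the first, by 0.31.

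Of 14 regulators of mitochondrial genes 0 passed, 6 below and 8 above the controls, with a median of 0.07. The coactivator gene Ppargc1a read 8.97 and 8.95 in stimulated cells, against 9.49 and 9.73 in control cells, and just missed the threshold (-0.65 ± 0.14, adjusted p = 0.0518, limma). Its 4 other probe sets gave -0.31 to -0.13. A related coactivator gene, Pprc1, read 9.10 and 8.69 in stimulated and 8.24 and 8.16 in control cells, without overlap in the other direction (0.70 ± 0.17, adjusted p = 0.0716, limma).

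**Figure D5:**
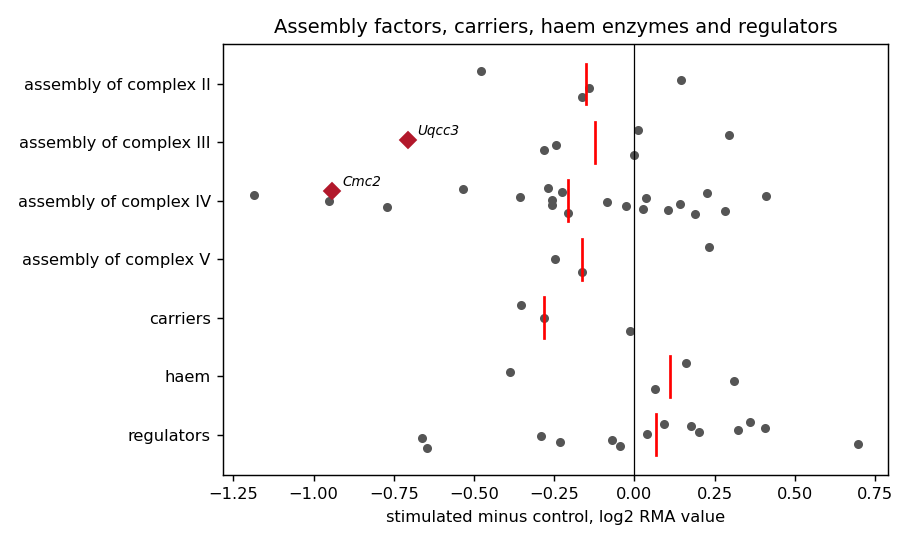
Change (stimulated minus control, log2 RMA value) of the tested genes of each related list, with red bars at list medians and red diamonds for adjusted p under 0.05. Cmc2 and Uqcc3 are the only diamonds, and the regulators spread from -0.66 to 0.70 around a median of 0.07.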

How the data were processed

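Total RNA of 4 HL-1 samples was labelled with biotin and read on 1 Affymetrix array each. The deposited values are on the log2 scale and were made by the authors with RMA, per the submitters' processing notes. The version and settings of RMA are not given in the sources used here. Of the 45101 probe sets, 64 are manufacturer's controls and 34945 have 1 gene symbol in GEO's platform annotation. Each of 18193 genes was represented by its brightest such probe set, and the 13058 genes with a mean at or above the 40th percentile of the non-control probe sets were tested, with 2 stimulated against 2 control arrays. limma 3.58.1 in R 4.3.3 was used (lmFit and eBayes, two-sided, Benjamini-Hochberg over all genes tested). The fit was run on simulated data with planted changes of 1 and 2 log2 units. Genes varied independently there, so that run does not cover a shift shared by many genes of 1 array. The members, related lists and role groups were chosen with earlier results of these data known, so no list was tested. Genes were named by rule: both isoforms of 3 pairs, the 2 smallest p of each complex and list, and all called members. Uqcr10, Cox7c, Atp5g2 and the members given by value alone were added after their values were seen. Alternatives covered filter, scaling, probe set choice, variance trend, left-out arrays and a replicate block. No array file or mitochondrially encoded gene was used here.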

Additional observations from a re-analysis of the deposited data

How the results depend on the processing

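All medians of the members and of complexes II, III, IV and V kept their sign under every alternative run. With 1 array left out at a time, members called lower ranged from 0 to 1 and members called higher stayed at 0. All genes called lower ranged from 0 to 41 and those called higher from 19 to 72. The median of the members ranged from -0.36 to -0.16, that of complex II from -0.59 to -0.17, complex III from -0.42 to -0.14, complex IV from -0.18 to -0.10, complex V from -0.38 to -0.20, the Nduf genes from -0.35 to -0.19, cytochrome c from -0.10 to 0.03 and all genes tested from -0.025 to 0.020. The isoform differences ranged from 0.29 to 0.97 (Cox6a2 minus Cox6a1), -0.34 to -0.20 (Cox7a1 minus Cox7a2) and -0.63 to -0.30 (Cox8b minus Cox8a). With other probe sets Cox7a1 minus Cox7a2 was -0.057, and Cox8b minus Cox8a was -0.80 against a Cox8a probe set below the filter. With arrays centred on their medians 1 member was called lower. With arrays centred on the median of the genes tested, a setting chosen after seeing the data, 55.3% of 852 calls were rises, against 70.6% of 722 as reported, 381 genes were called lower, and the medians were -0.20 for complex IV and -0.068 for all genes. With the 60th percentile filter Cox8b was not tested and 319 genes were called lower, and 433 with every probe set tested on its own. The median of Cycs and Cyct was -0.13 without a filter, while Cycs alone gave -0.11 with the mean of its probe sets and -0.12 as the median of its probe sets past the filter. The stimulated samples carry experiment numbers and a protocol text gives control 2 a number, but nothing says that numbers mark shared cultures. With the replicate block 489 genes were called lower and 856 higher, 3 members lower (Cox6b2 joining at adjusted p = 0.0418) and 1 higher, Cox6a2 (0.62, adjusted p = 0.0374). Deviations of same-numbered arrays from their group means correlated at 0.33 across genes. The cause of these shifts was not tested, and 2 arrays per group limit the precision of every value.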
